A study of Mus musculus with 2 samples.

Results

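The expression of 10 neutrophil granule genes was examined in single-cell transcriptomes of fetal liver LSK cells from IκBα WT and KO mouse embryos. They comprised 4 genes of primary granules (Mpo, Elane, Prtn3 and Ctsg), 4 genes of secondary granules (Ngp, Camp, Ltf and Lcn2), and the S100 genes S100a8 and S100a9, out of 32285 genes listed in the count tables. The genes were picked from general knowledge of neutrophil granules with results of these data in view, and Ngp was included because it had been found lower in KO cells, so that its difference between the libraries is given as a description. LSK cells are lineage-negative, SCA1-positive and cKIT-positive progenitors, and they were sorted from lineage-depleted livers of CD1 embryos at E14.5. The WT library came from 2 pooled embryos and the KO library from 3. The KO embryos lacked functional Nfkbia, the gene encoding the NF-κB inhibitor IκBα, in all tissues. LT-HSCs are named in the titles of the samples, but their cell type label and the sorting protocol give LSK cells. Since each genotype had a single library, no test was run. All intervals below are 95% intervals that cover counting error only, and neither the spread between cells nor that between embryos is part of them.

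Neutrophils assemble their granules in sequence while they mature in the blood-forming organs. Primary (azurophilic) granules are filled first, at the promyelocyte stage, with myeloperoxidase and serine proteases, and secondary (specific) granules follow at the myelocyte and metamyelocyte stages, with antimicrobial and metal- or siderophore-binding proteins. The genes of each class are switched on and off in these windows, and transcription factors of the C/EBP family and PU.1 are well known among their regulators. S100a8 and S100a9 encode the subunits of calprotectin, a calcium- and metal-binding protein that is kept mostly in the cytosol rather than in granules. Their RNA rises as neutrophil precursors mature, and it was used here as the measure of maturation.

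The libraries held 3840 WT and 4928 KO barcodes, of which 3458 and 4417 passed the filters, with medians of 28065 and 19560 UMIs per cell. A UMI marks 1 captured RNA molecule, and CPM denotes counts (UMIs) per 1000000 UMIs of the cells summed. Nfkbia had 1478 UMIs in the WT and 7 in the KO library. Cells with Y-linked UMIs and without Xist, called male below, formed 0.116% of the WT and 17.4% of the KO cells, and 7 cell barcodes occurred in both libraries. WT cells were deeper, so that shares of cells with a UMI are given together with shares at equal depth.

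In the GENCODE annotation of GRCm38, all 10 are protein-coding genes. Of the primary granule genes, Mpo lies at chr11:87793581-87804413 (plus strand), Elane at chr10:79886247-79888215 (plus) close to Prtn3 at chr10:79874476-79883174 (plus), and Ctsg at chr14:56099881-56102574 (minus). Of the secondary granule genes, Camp (chr9:109847379-109849617, minus), Ngp (chr9:110419747-110423012, plus) and Ltf (chr9:111019271-111042767, plus) share a stretch of chromosome 9, and Lcn2 lies at chr2:32384633-32388252 (minus). S100a8 (chr3:90668978-90670035, plus) and S100a9 (chr3:90692632-90695721, minus) are neighbours on chromosome 3. The reference sequences before the starts of Ngp, Camp and Ltf, which of all members were counted in the fewest cells of the neutrophil gates described below, are shown with that of Elane, a primary granule gene counted in every gated cell. Sequences and starts are from RefSeq (GRCm38.p6), are written 5′ to 3′ on the strand of the gene and end where the first exon of the gene begins in the GENCODE annotation or at the RefSeq start, whichever comes first. Capitals mark matches on either strand to the C/EBP core TTGCNNAA or to the PU.1 core GAGGAA.
Ngp, chr9:110419558-110419746, plus strand: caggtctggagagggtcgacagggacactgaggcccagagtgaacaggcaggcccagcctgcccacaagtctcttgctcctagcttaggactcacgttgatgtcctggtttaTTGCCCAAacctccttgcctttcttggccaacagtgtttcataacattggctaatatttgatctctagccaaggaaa
Camp, chr9:109849618-109849706, minus strand: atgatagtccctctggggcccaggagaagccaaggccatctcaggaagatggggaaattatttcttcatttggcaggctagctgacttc
Ltf, chr9:111019042-111019270, plus strand: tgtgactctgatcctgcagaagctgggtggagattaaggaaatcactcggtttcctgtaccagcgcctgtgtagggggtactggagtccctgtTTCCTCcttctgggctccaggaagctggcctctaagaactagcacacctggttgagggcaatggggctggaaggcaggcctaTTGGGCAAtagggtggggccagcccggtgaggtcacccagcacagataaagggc
Elane, chr10:79886062-79886246, plus strand: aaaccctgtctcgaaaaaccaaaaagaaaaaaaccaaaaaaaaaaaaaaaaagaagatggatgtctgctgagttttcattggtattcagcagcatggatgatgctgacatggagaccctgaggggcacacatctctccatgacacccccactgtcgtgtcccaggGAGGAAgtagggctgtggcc
Over the whole 250 bases before the RefSeq start, the C/EBP core was found for 0 of the 4 primary granule genes, for 3 of the 4 secondary granule genes (Ngp, Ltf and Lcn2) and for S100a9, and in 9.56% of 32851 promoter windows of the same length. Ngp had 2 matches, which began 138 and 11 bases before the start, and the second lay in annotated exon sequence and is not shown. The PU.1 core was found for all 4 primary granule genes, for Ltf, Lcn2 and S100a8, and in 23.3% of all windows, and it began 85 bases before the start of Elane and 157 bases before that of Ltf. The sequence TATAAA was found for Ctsg and S100a8 and in 12.4% of all windows. Neither core was found for Camp. Both core matches of Lcn2 lay past the point where its first exon begins in the GENCODE annotation, as did the TATAAA of S100a8. These are matches of letters and were not tested as binding sites.

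Cells were gated on the RNA of 3 members, scaled to 10000 UMIs per cell. The early gate required Mpo of at least 10, Elane of at least 5 and S100a8 below 10, and the maturing gate required S100a8 of at least 10 with Mpo or Elane of at least 5. Mpo, Elane and S100a8 chose the cells, so their levels there are a description. The early gate held 42 WT cells (1.21%, 0.88 to 1.64, exact Clopper-Pearson interval) and 56 KO cells (1.27%, 0.96 to 1.64), and the maturing gate held 38 WT cells (1.10%, 0.78 to 1.51) and 55 KO cells (1.25%, 0.94 to 1.62). The shares differed by 0.053 percentage points (KO minus WT, -0.47 to 0.56) and 0.15 percentage points (-0.36 to 0.64), so no difference was detectable at this number of cells. A further 2 WT cells and 1 KO cell had S100a8 without Mpo or Elane at 5 and were kept apart. The median depth was 34576 UMIs in WT and 23075 in KO cells of the early gate, and 26676 and 20372 in the maturing gate. Around the S100a8 threshold, the highest cell below it was at 7.31 (WT) and 8.43 (KO) and the lowest cell above it at 10.9 and 10.3. For Elane, the cells on either side of the threshold were at 4.74 and 5.16 in WT and at 4.99 and 5.04 in KO. For Mpo, 240 WT and 240 KO cells lay between 5 and 10.

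Markers that the gates did not use were those of neutrophil precursors. All 8 of them (Gfi1, Cebpe, Ms4a3, Fcnb, Prss57, Serpinb1a, Igsf6 and Hp) were detected in both gates of both libraries. They summed to 2006 CPM in WT against 2660 CPM in KO cells of the early gate and to 3631 and 3408 CPM in the maturing gate, against 68.1 and 66.1 CPM in all other cells. Markers of other lineages were below those of neutrophil precursors, but not equal between the libraries and not all lower than outside the gates. Monocyte and dendritic markers were higher in both gates than outside. For WT cells, the early gate gave 151.4, the maturing gate 164.5 and all other cells 49.4 CPM. For KO cells, these values were 180.0, 149.6 and 48.4 CPM. Mast and basophil markers in the early gate were also above their level outside (35.5 against 27.0 CPM for WT, 33.6 against 16.5 CPM for KO). The 5 erythroid markers summed to 160.2 CPM in WT against 33.6 CPM in KO cells of the early gate. In the maturing gate, macrophage markers (4 of 5 detected) and endothelial markers (5 of 5) each summed to 33.0 CPM in KO and to 0 in WT, where none was detected. Of the eosinophil genes Prg2 and Epx, 1 was detected in the maturing gate, at 50.6 CPM in KO, where 1 cell reached 65.5 per 10000, and at 0.870 CPM in WT. Cells with 5 or more UMIs per 10000 of markers of another lineage were counted, with monocyte and dendritic and stem cell markers left out. There were 5 KO and 0 WT such cells in the maturing gate, and 1 KO and 2 WT cells in the early gate. Values without these cells are given where they bear on a result, and no cell was removed for monocyte and dendritic markers. In single cells the latter markers reached 5.16 per 10000 in WT and 10.2 in KO in the maturing gate. In the early gate they reached 8.16 in WT and 12.3 in KO. Scrublet called 4 WT and 2 KO cells of the early gate and 1 WT and 7 KO cells of the maturing gate as doublets.

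The primary granule genes were expressed in nearly every gated cell and at similar levels in both libraries. The early gate required Mpo and Elane and the maturing gate required either, so only for Prtn3 and Ctsg was this presence not set by the gates. Mpo encodes myeloperoxidase, the haem enzyme that makes hypochlorous acid. In the early gate its cells ranged from 16.6 to 126.3 per 10000 with a median of 46.3 in WT and from 30.8 to 137.8 with a median of 50.9 in KO, and the sums were 4560 CPM (4463 to 4659, exact Poisson interval) and 5485 CPM (5363 to 5609). The distributions overlapped over most of their range, and the log2 KO/WT ratio was 0.27 (0.22 to 0.31, exact conditional interval). Elane encodes neutrophil elastase, and its cells ranged from 5.16 to 68.7 per 10000 with a median of 19.8 in WT and from 5.04 to 67.7 with a median of 17.8 in KO. The Elane sum stood at 1998 CPM in WT against 2156 CPM in KO cells (log2 0.11, 0.04 to 0.18). For Prtn3, which encodes proteinase 3, the levels were 5403 and 6087 CPM (0.17, 0.13 to 0.21), and its median over cells was higher in WT (60.5 per 10000) than in KO (55.8). Ctsg, which encodes cathepsin G, stood at 2730 and 3019 CPM (0.15, 0.09 to 0.20) with medians of 29.6 in WT and 28.2 in KO. The direction of the summed CPM thus differed from that of the median cell for Elane, Prtn3 and Ctsg, and a sum gives deep and high cells more weight than a median does.

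The 4 primary granule genes together amounted to 14692 CPM in WT against 16748 CPM in KO cells of the early gate, a log2 ratio of 0.19 (0.16 to 0.21). This difference did not outlast a change of the gate. It was -0.0785 with all gate thresholds halved and -0.0883 with the thresholds doubled, and it was 0.0297 when each cell counted equally. Without the single cell with most of these UMIs in each library it was 0.11, without called doublets 0.0413 and without cells with markers of another lineage 0.17. None of the 4 genes was past a 2-fold difference in either gate.

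In the maturing gate, Mpo was at 5007 CPM in WT against 5027 CPM in KO (log2 0.01, -0.04 to 0.06), Elane at 4183 and 4095 CPM (-0.03, -0.09 to 0.02), Prtn3 at 8447 and 8052 CPM (-0.07, -0.11 to -0.03) and Ctsg at 2948 and 3009 CPM (0.03, -0.04 to 0.09). The distributions overlapped again, with Mpo medians of 48.2 per 10000 (15.6 to 139.9) in WT against 46.5 (0 to 138.4) in KO, and Elane medians of 49.2 (6.22 to 120.1) against 48.1 (4.53 to 185.1). For Prtn3 the median was 94.3 (20.7 to 172.0) in WT and 102.6 (14.6 to 170.4) in KO, and for Ctsg it was 30.8 (0 to 72.5) and 30.6 (0 to 97.1). For Prtn3 the order of the medians was thus the reverse of that of the sums. The sum of the 4 genes was 20586 CPM in WT against 20183 CPM in KO (-0.03, -0.05 to -0.0039), and it became 0.09 without the cells with markers of another lineage and 0.19 without called doublets. Between the gates, Elane and Prtn3 were higher in the maturing than in the early gate in both libraries, whereas Ctsg stayed within 2730 to 3019 CPM. The plot of values per cell shows the 4 genes as compact clouds in both gates.

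**Figure D1:**
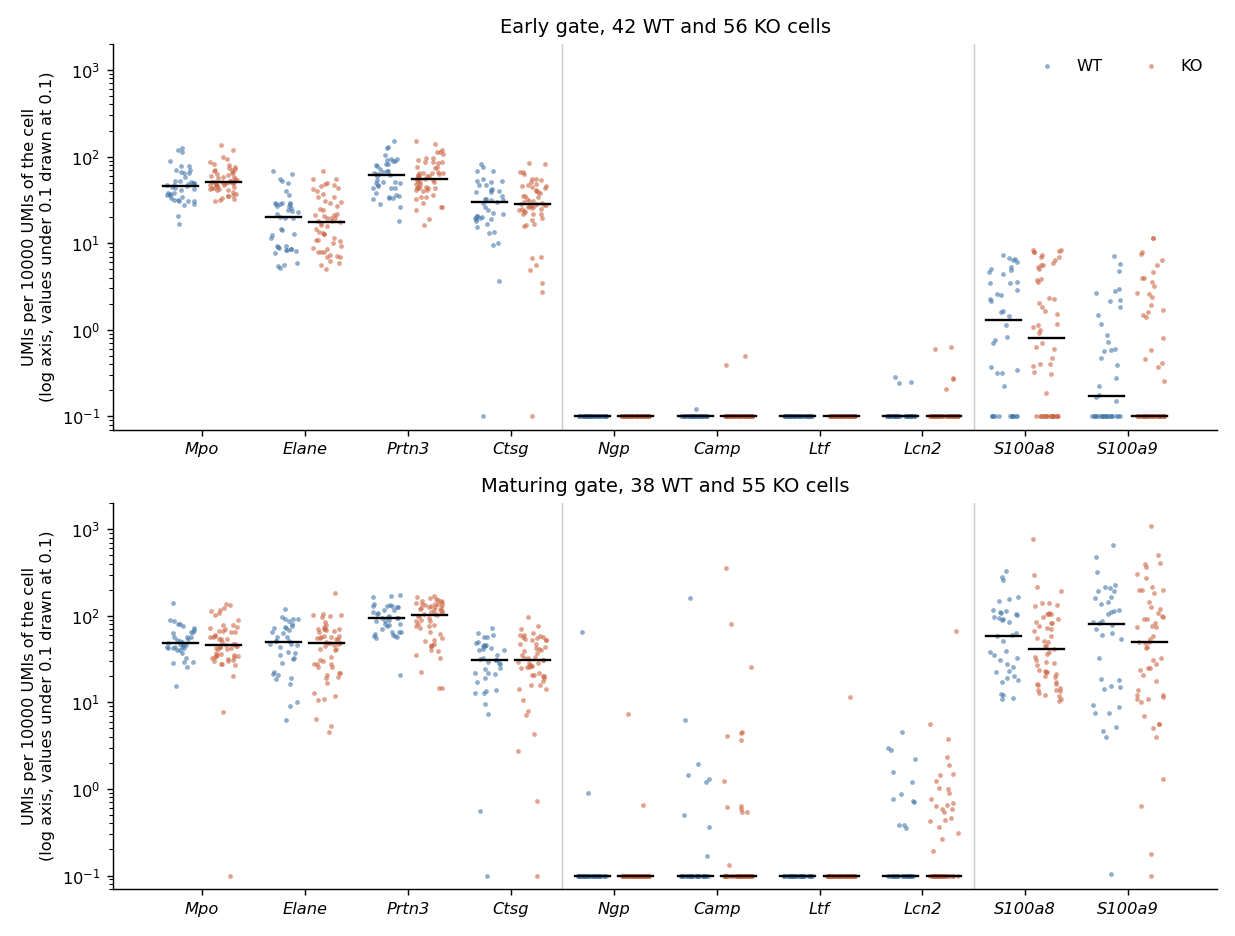
UMIs of each granule gene per 10000 UMIs of the cell (log axis, values under 0.1 drawn at 0.1) in the early gate (top, 42 WT and 56 KO cells) and the maturing gate (bottom, 38 WT and 55 KO cells), where each point is 1 cell, black lines are medians and grey lines separate primary, secondary and S100 genes. The primary granule genes form overlapping clouds in WT and KO, while the medians of Ngp, Camp, Ltf and Lcn2 are 0 in both gates and a few cells of the maturing gate stand far above the rest.

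S100a8 was below 10 per 10000 in the early gate by definition and was counted in 30 of 42 cells of the WT and 38 of 56 cells of the KO library, at 225.8 CPM (204.5 to 248.6) and 237.8 CPM (213.0 to 264.8). S100a9, its partner, which the gates did not use, was at 125.2 CPM in WT against 162.8 CPM in KO (log2 0.38, 0.11 to 0.65). A single WT cell held 116 of the 229 S100a9 UMIs of that gate, and without the top cell of each library the log2 ratio was 1.03 (0.68 to 1.38). S100a8 in the maturing gate reached 6011 CPM in WT against 5490 CPM in KO (-0.13, -0.18 to -0.08), and S100a9 7718 and 7807 CPM (0.02, -0.02 to 0.06). Cells of that gate varied far more for S100a9 than for any primary granule gene, from 0.105 to 660.0 per 10000 with a median of 79.8 in WT and from 0 to 1079 with a median of 49.9 in KO. Among female cells alone, S100a8 was 0.10 higher in KO on the log2 scale and S100a9 0.46 higher, so that the sign of the S100a8 difference depended on the cells that were left out.

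The secondary granule genes behaved differently from the primary ones: their UMIs lay in a handful of cells. In the early gate the 4 genes together had 7 UMIs in WT and 8 in KO, or 3.83 and 5.71 CPM. In the maturing gate they had 538 UMIs (468.3 CPM) and 705 UMIs (475.2 CPM), a log2 ratio of 0.02 (-0.14 to 0.19). Only 7 cells in both libraries together, 3 WT and 4 KO, reached 5 per 10000 for at least 1 of these genes, and all 7 were among the 23 WT and 25 KO cells with S100a8 of at least 50 per 10000. By contrast, Prtn3 reached 5 per 10000 in all 82 WT and all 112 KO cells of the 3 gates. The plot of secondary granule UMIs by cell shows each gene's total as a stack of the cells that contributed to it.

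**Figure D2:**
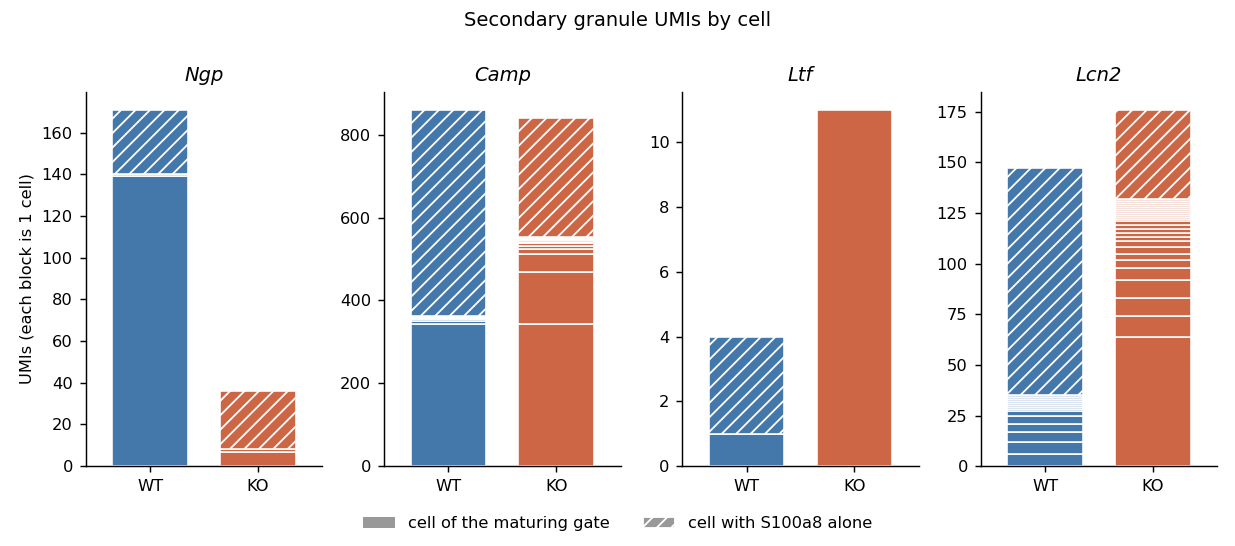
UMIs of Ngp, Camp, Ltf and Lcn2 in WT and KO cells of the maturing gate (plain) and in the cells with S100a8 alone (hatched), where each block is 1 cell and each panel has its own axis in UMIs. For Ngp a single WT cell with 139 UMIs makes up most of the WT bar, while the Camp bars of both libraries are of nearly equal height and made mostly of 2 or 3 cells.

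Ngp encodes neutrophilic granule protein, a cathelicidin-related protein of secondary granules. In the early gate it had 0 UMIs in both libraries, where the floor of 3 UMIs lies at 1.64 CPM in WT against 2.14 CPM in KO, and no ratio was computed. The maturing gate held 140 Ngp UMIs in WT and 8 in KO, that is 121.9 CPM (102.5 to 143.8) and 5.39 CPM (2.33 to 10.6), a log2 ratio of -4.50 (-5.74 to -3.48). Of the 140 WT UMIs, 139 were in 1 cell and 1 in a second cell, and of the 8 KO UMIs, 7 were in 1 cell and 1 in another. The other 36 WT and 53 KO cells had none. Without the top cell of each library, 1 UMI was left on each side, which gives no ratio. Without the WT cell alone, the KO library was the higher one, with 8 UMIs against 1 (log2 2.60, -0.30 to 8.08). The counting interval of -5.74 to -3.48 takes each UMI as independent and therefore says little about a count of which 99.3% came from 1 cell.

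Among the cells with S100a8 alone, 1 of 2 WT cells held 31 Ngp UMIs and the only KO cell held 28. When these were added to the maturing gate, the log2 ratio of Ngp was -2.57 on 171 against 36 UMIs. Outside the 3 gates, none of the 3376 WT cells held Ngp (0 UMIs), and 2 of the 4305 KO cells held 1 UMI each. Ngp was therefore found in 3 gated WT cells and 3 gated KO cells in all. Its difference between the libraries lay in how many UMIs 1 WT cell carried, and not in the number of cells with the gene.

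The cell with 139 Ngp UMIs was the only WT cell of the maturing gate without Xist or Y-linked UMIs, and among female cells alone Ngp had 1 WT and 7 KO UMIs (log2 3.13, 0.17 to 8.62). This cell had 21516 UMIs and 3450 genes and was not called a doublet. Beside Ngp it held 343 Camp, 6 Lcn2 and 0 Ltf UMIs, together with 301 Mpo, 155 Elane, 278 Prtn3, 16 Ctsg, 598 S100a8 and 1420 S100a9 UMIs, so that primary and secondary granule genes were counted in it together. The WT cell with 31 Ngp UMIs held 498 Camp, 112 Lcn2 and 3 Ltf UMIs and only 2 Mpo, 11 Elane, 46 Prtn3 and 1 Ctsg UMIs. The KO cell with 28 Ngp UMIs was similar, with 285 Camp, 44 Lcn2, 58 Prtn3, 5 Elane and 0 Mpo and Ctsg UMIs. In the KO cell with 7 Ngp UMIs, 342 Camp, 64 Lcn2 and 11 Ltf UMIs were counted beside 16 Elane, 14 Prtn3 and 0 Mpo and Ctsg UMIs. Another 2 KO cells had 126 and 43 Camp UMIs and 0 Ngp UMIs, and both still had 43 or more Mpo and 139 or more Prtn3 UMIs.

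Camp encodes the cathelicidin antimicrobial peptide CRAMP. It had 1 WT and 2 KO UMIs in the early gate. Its UMIs in the maturing gate were 362 in WT (315.1 CPM, 283.5 to 349.3) and 554 in KO (373.4 CPM, 343.0 to 405.9), a log2 ratio of 0.25 (0.05 to 0.44). The top cell held 343 of the WT and 342 of the KO UMIs. The second cell held 7 UMIs in WT and 126 in KO, and without both top cells the log2 ratio rose to 3.09 (2.41 to 3.85). With the cells with S100a8 alone in the gate it was -0.35 (-0.49 to -0.22). Camp was found in 9 of 38 WT cells (23.7%) and 14 of 55 KO cells (25.5%), against 0.178% and 0.302% of cells outside the gates. In cells thinned to 8500 UMIs these counts were 3 of 34 and 10 of 55 cells, or 8.82% and 18.2%.

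Lcn2 encodes lipocalin 2, which binds bacterial siderophores. It had 6 UMIs in each library in the early gate, and in the maturing gate 35 UMIs in WT (30.5 CPM, 21.2 to 42.4) and 132 in KO (89.0 CPM, 74.4 to 105.5), a log2 ratio of 1.55 (1.00 to 2.13). It was the secondary granule gene found in the most gated cells, 14 of 38 WT cells (36.8%) and 25 of 55 KO cells (45.5%), or 20.6% and 25.5% at 8500 UMIs per cell. The highest cell held 6 UMIs in WT and 64 in KO, and without the top cell of each library the ratio was 0.84 (0.20 to 1.52), below 2-fold. It was -0.06 when the cells with S100a8 alone were added, of which 1 WT cell held 112 Lcn2 UMIs and the KO cell 44. Ltf encodes lactoferrin, the iron-binding protein of secondary granules. It had 0 UMIs in the early gate of either library and 1 WT and 11 KO UMIs in the maturing gate, and the 11 KO UMIs were all in 1 cell (log2 3.09, 0.31 to 8.52).

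Of the 10 genes, 6 had at least 20 UMIs over both libraries in the early gate, and 0 of them were 2-fold lower and 0 were 2-fold higher in KO. Over all 8009 genes with that count, 2.14% were at least 2-fold lower and 1.61% at least 2-fold higher. In the maturing gate 9 of the 10 had that count (all but Ltf), and 1 was 2-fold lower (Ngp) and 1 was 2-fold higher (Lcn2), while over all 7546 genes 1.11% were lower and 3.03% were higher. The median log2 KO/WT of the members that passed was 0.16 in the early and 0.01 in the maturing gate, beside medians of 0.02 and 0.02 over all genes. Because Ngp was chosen for its lower value, nothing is read from its count. Mpo, Elane and S100a8 are part of these counts and medians, but they chose the cells by the same thresholds in both libraries. Their ratios are therefore a description too. The plot of KO against WT sets the ratio of each gene beside the ratio without the top cell.

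**Figure D3:**
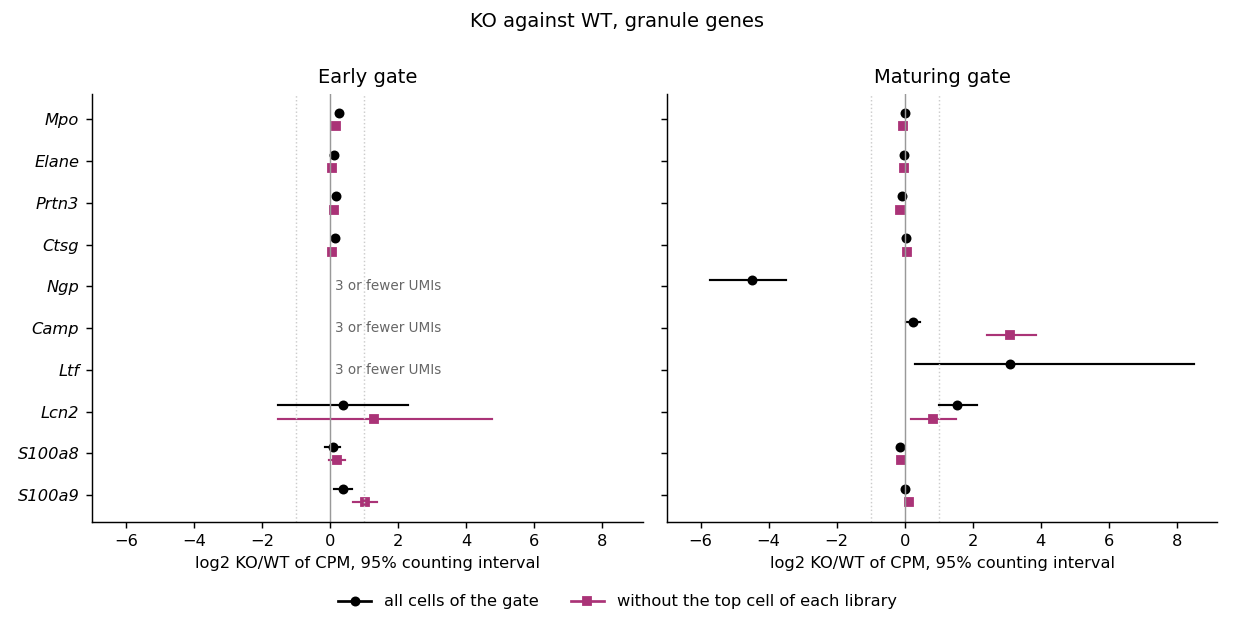
Log2 KO/WT of CPM with 95% counting intervals for each granule gene in the early gate (left) and the maturing gate (right), over all cells of the gate (black circles) and without the cell with the most UMIs of the gene in each library (purple squares). Dotted lines mark a 2-fold difference. The primary granule genes lie near 0 with and without the top cells, whereas Ngp and Ltf have no value in the maturing gate without them and Camp moves from 0.25 to 3.09.

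Along the S100a8 level, primary granule RNA was present from the lowest bin on and secondary granule RNA was found almost wholly in the highest. For Mpo and Elane this presence was set by the early gate, which required both in cells with S100a8 below 10. Prtn3 and Ctsg, which the gates did not use, were at 3931 and 2106 CPM in WT cells of the lowest bin. In KO cells of that bin they were at 5260 and 2574 CPM. Cells of the early and maturing gates were divided at 1, 10 and 50 S100a8 UMIs per 10000, which gave 20, 22, 17 and 21 WT cells and 30, 26, 31 and 24 KO cells. The primary granule sum was 11480, 18050, 17595 and 26027 CPM in these WT bins and 14830, 18844, 17131 and 26518 CPM in the KO bins. Among the cells of these gates, it was thus highest in the bin with most S100a8 in both libraries. The cells with S100a8 alone were not in the bins, because the maturing gate required Mpo or Elane. Their primary granule sum was 1524 CPM in 2 WT cells and 4363 CPM in 1 KO cell. In the lowest bin the sums of KO cells were above those of WT cells for each of the 4 genes, by log2 ratios of 0.25 (Elane) to 0.42 (Prtn3). The medians per 10000 there were 43.5 in WT and 44.8 in KO for Prtn3 and 46.8 and 49.5 for Mpo. For Elane they were 9.05 and 12.9, and for Ctsg 20.6 and 26.6. Deep WT cells of 171303 UMIs (called a doublet) and 111787 UMIs were part of the WT sums of this bin. In the other bins the ratio of the primary sum lay between -0.04 and 0.06.

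The secondary granule sum was 2.14, 5.59, 5.40 and 1310 CPM in the WT bins and 1.37, 10.5, 34.0 and 1391 CPM in the KO bins. Nearly all of it was therefore in cells with S100a8 of at least 50 per 10000, and Ngp was not counted at all in the lower 3 bins of either library. Camp and Lcn2 had 11 and 23 UMIs in KO cells with S100a8 between 10 and 50, against 1 and 2 UMIs in WT cells of that bin. S100a9 rose through the bins from 19.2 to 17665 CPM in WT and from 31.5 to 19367 CPM in KO, and S100a8 itself defined them.

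**Figure D4:**
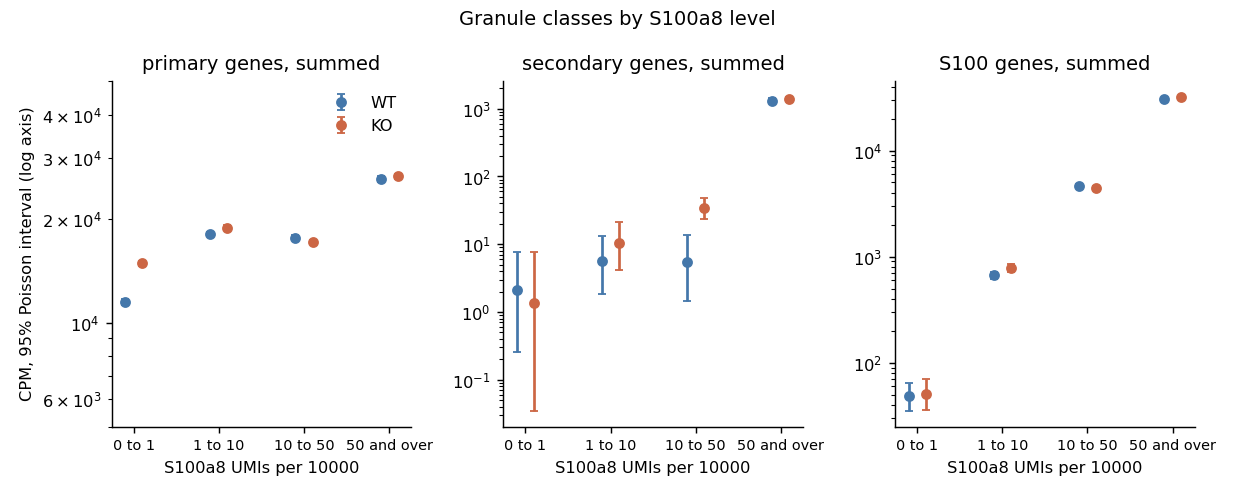
Summed CPM (log axis, 95% Poisson intervals) of the primary, secondary and S100 genes in WT and KO cells of the early and maturing gates, in bins of S100a8 UMIs per 10000. The secondary granule sum stays at or below 34.0 CPM in the lower 3 bins of either library and reaches 1310 CPM in WT against 1391 CPM in KO in the highest bin, while the primary sum differs by less than 3-fold between bins. The cells with S100a8 alone are not in the bins.

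The KO pool held cells of both sexes, which allowed a comparison within the KO library. In the early gate the primary granule sum was 16189 CPM in 35 female KO cells and 18274 CPM in 17 male KO cells, against 14924 CPM in 39 female WT cells. The log2 male/female ratio within the KO library was 0.17 (0.13 to 0.21), about as large as the KO/WT ratio of 0.19, and between female KO and female WT cells it was 0.12 (0.09 to 0.15). The sum in the maturing gate was 20182 CPM in 34 female KO cells, 23778 CPM in 12 male KO cells and 20314 CPM in 37 female WT cells. There, the log2 ratio was 0.24 (0.20 to 0.28) for male against female KO cells and -0.01 (-0.04 to 0.02) for female KO against female WT cells. S100a9 was higher in male than in female KO cells of the early gate (0.71, 0.32 to 1.10) and lower in the maturing gate (-0.15, -0.22 to -0.08). Male and female cells came from different embryos of the pool, so that sex and embryo cannot be told apart.

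Outside the neutrophil gates, Mpo and Prtn3 were found widely, and the secondary granule genes were nearly absent. Mpo was at 237.3 CPM in 3376 WT cells and 222.2 CPM in 4305 KO cells (log2 -0.09, -0.12 to -0.07), and 44.7% and 38.5% of these cells had at least 1 UMI. Prtn3 stood at 180.1 and 150.8 CPM (-0.26, -0.29 to -0.22), with UMIs in 54.3% and 43.9% of cells. At 8500 UMIs per cell the shares were 34.3% and 30.2% for Mpo and 38.6% and 31.0% for Prtn3. Ctsg was lower and went the other way, at 27.3 CPM in WT against 34.6 CPM in KO (0.34, 0.27 to 0.41), and Elane was at 4.51 and 5.90 CPM. These UMIs were not spread evenly over cell types. For comparison, further cells were gated on markers of other lineages, with thresholds set after the data had been seen.

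In cells gated on the monocyte and dendritic markers Irf8, Ly86, Csf1r and F13a1 (74 WT and 73 KO cells), Mpo was at 995.7 and 1032 CPM (log2 0.05, -0.03 to 0.14) and Prtn3 at 1211 and 1285 CPM (0.09, 0.01 to 0.16). Ctsg was at 128.8 and 192.0 CPM there (0.58, 0.36 to 0.79). Cells gated on the stem cell markers Hlf, Mecom, Mllt3 and Procr (383 WT and 357 KO cells) had 218.8 CPM of Prtn3 in WT and 166.4 CPM in KO (-0.40, -0.53 to -0.26). A single WT cell held 122 of the 1373 Prtn3 UMIs there, and the top KO cell held 8 of 704. At 8500 UMIs, Prtn3 was found in 75.3% (70.5 to 79.7) and 63.2% (56.8 to 69.2) of them, while Elane was at 1.75 and 1.89 CPM and Ctsg at 2.71 and 3.55 CPM. Erythroid cells (1489 WT and 1947 KO cells), which should lack these genes, had 21.5 and 26.8 CPM of Prtn3 and 26.8 and 40.6 CPM of Mpo (1 cell held 185 of 1483 WT and 332 of 2040 KO UMIs), and 8.36% and 7.29% of them had a Prtn3 UMI at 8500 UMIs per cell. Among these gates the order for Prtn3 was thus maturing gate, early gate, monocyte and dendritic, stem and erythroid cells in both libraries, with intervals that did not overlap between neighbours within a library.

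In cells gated on endothelial, hepatocyte and megakaryocyte markers, which should lack the gene too, Mpo was higher in KO. It was at 36.7 CPM in 54 WT against 111.4 CPM in 72 KO endothelial cells, and 23.2 CPM in 28 WT and 71.3 CPM in 60 KO hepatocytes. In megakaryocytes it was at 7.23 CPM in 25 WT cells against 82.2 CPM in 88 KO cells (log2 3.51, 2.50 to 4.73). In the KO library, 1 hepatocyte held 97 of the 137 Mpo UMIs, 1 endothelial cell 41 of 124 and 1 megakaryocyte 91 of 235. The shares of these cells with an Mpo UMI at 8500 UMIs did not follow for hepatocytes, at 11.5% in WT and 8.77% in KO, and for endothelial cells they were 8.89% (2.48 to 21.2) and 16.4% (8.15 to 28.1). For megakaryocytes they were 8.33% (1.03 to 27.0) and 24.3% (14.8 to 36.0). S100a8 was at 1.43 CPM in WT against 2.11 CPM in KO over all cells outside the gates. S100a9 was at 1.197 and 3.982 CPM (1.73, 1.44 to 2.04). It was higher in KO also in erythroid cells, at 1.19 CPM in WT against 2.93 CPM in KO. Whether free RNA in the droplets gave these UMIs was not tested.

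Ltf was distributed unlike the other secondary granule genes. Outside the gates, 62 WT cells held 64 Ltf UMIs and 45 KO cells held 45, more than the 4 WT and 11 KO UMIs within them. Cells of no marker gate held 38 of the 64 WT UMIs and 27 of the 45 KO UMIs, at 1.10 CPM and 0.880 CPM. Cells gated on stem cell markers had 21 of the 64 WT UMIs and 11 of the 45 KO UMIs, at 3.35 CPM and 2.60 CPM, against 0.0724 CPM and 0.0796 CPM in erythroid cells. At 8500 UMIs, 3.09% (1.55 to 5.46) of WT and 1.21% (0.25 to 3.51) of KO stem-gated cells had an Ltf UMI, against 0.0685% and 0.106% of erythroid cells. Lcn2 outside the gates was found mainly in cells gated on hepatocyte markers, which held all 4 of the WT UMIs and 22 of the 30 KO UMIs, at 2.90 CPM and 11.4 CPM. Camp had 6 WT and 13 KO UMIs outside the gates, each in a different cell.

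**Figure D5:**
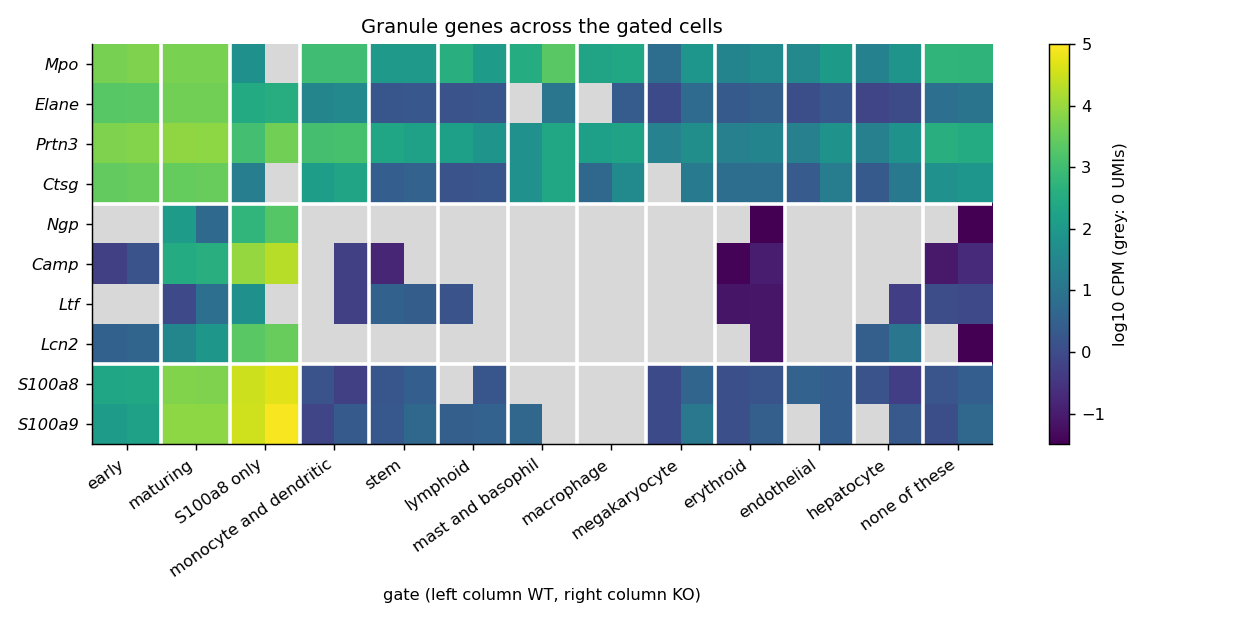
Log10 CPM of the 10 granule genes in each gate, with WT in the left and KO in the right column of each pair and grey where no UMI was counted. Each of the 4 primary granule genes is higher in the early and maturing gates than in any other gate of the same library and is present at lower levels in most of them, while Ngp and Camp lie almost wholly in the maturing gate and the cells with S100a8 alone, with at most 13 UMIs outside the gates and 2 in the early gate of either library. Mpo and Elane were among the genes that chose the gated cells, so for them this order is a description.

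Of 45 further granule and neutrophil genes on a list drawn up from general knowledge, 31 had at least 20 UMIs in the early gate, and 0 were 2-fold lower and 3 were 2-fold higher in KO (Lyz2, Olfm4 and Cybb). Over all genes with that count, 2.14% were lower and 1.61% were higher. The median log2 KO/WT was 0.30 over the list and 0.02 over all genes. Lyz2, which encodes lysozyme, was the only one of these with 200 UMIs or more, at 172.7 CPM in WT against 395.0 CPM in KO (1.19, 0.99 to 1.40). The alternatives under which the primary granule sum of the early gate shrank or changed sign were not run for the list genes. In the maturing gate, 31 of the 45 had enough UMIs, 0 were lower and 1 was higher (Klf6, a transcription factor with 20 WT and 57 KO UMIs), beside 1.11% lower and 3.03% higher over all genes, and the median was 0.00 over the list and 0.02 over all genes. Lyz2 itself was at 320.3 and 322.9 CPM there (0.01, -0.19 to 0.21). Some genes of secondary and tertiary granules had more UMIs in the maturing gate than Ngp, and their ratios were nearer to 0. Olfm4, which encodes olfactomedin 4, was at 159.3 CPM in WT against 175.9 CPM in KO (0.14, -0.13 to 0.42). Fcnb, which encodes ficolin B, was at 243.7 and 216.4 CPM (-0.17, -0.41 to 0.06), and Hp, which encodes haptoglobin, at 548.4 and 515.0 CPM (-0.09, -0.24 to 0.06). Pglyrp1, from the same part of the list, was lower in KO, at 350.8 CPM in WT against 304.0 CPM in KO (-0.21, -0.40 to -0.0091). Cebpe, a transcription factor required for secondary granules, was at 212.6 CPM in WT against 359.3 CPM in KO cells of the early gate (0.76, 0.56 to 0.95) and at 321.2 and 299.3 CPM in the maturing gate (-0.10, -0.30 to 0.10). Gfi1, which acts in the same programme, was at 58.3 and 56.6 CPM in the maturing gate.

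Over 20 points, the gates and marker-gated cells of both libraries, the genes most like each class among 3502 genes were found by Pearson's correlation of log2(CPM + 10). For the primary granule sum they were Anxa1 (r = 0.97), Lamtor4 (0.96) and Fcgr3 (0.96), and for the secondary granule sum Cstdc4 (0.99), Olfm4 (0.97) and Fcnb (0.95). The S100 sum was most like Cstdc5 (0.99), Fcnb (0.98) and Hsd11b1 (0.97). Ngp was less closely followed by any gene, with Cstdc4 (0.79), Fcnb (0.77) and Olfm4 (0.76) leading. The points share libraries and depth and are not independent, and the genes were ranked on the same values, so these coefficients only describe the pattern.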

How the data were processed

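Single-cell RNA-seq libraries (10x Genomics 3′ chemistry) of LSK cells from fetal livers at E14.5 were analysed, 1 for IκBα WT and 1 for KO. Per the labels, the authors aligned reads to mm10 with Cell Ranger 6.0.0 and deposited unnormalised UMI counts, 1 matrix per library; the gene annotation release is not given in the sources used here. The deposited counts were neither normalised nor filtered beyond cell calling. From there, barcodes were kept where 1000 genes or more were detected and mitochondrial UMIs made up 20% or less (3458 of 3840 WT and 4417 of 4928 KO). Scrublet (scanpy 1.11.5) marked 135 WT and 256 KO cells as doublets, which were kept and left out in an alternative. Gates used UMIs scaled to 10000 per cell, and cells with S100a8 of at least 10 but neither Mpo nor Elane of at least 5 were kept apart.

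Within a gate, UMIs of all cells were added up and divided by the summed total (CPM). With 1 library per genotype no test was run: Poisson, Clopper-Pearson and conditional intervals (scipy 1.17.1) are exact at 95% and cover counting error only, and a fold against 0 was limited by a floor of 3 UMIs. Genes with at least 20 UMIs over both libraries formed the background, and a gene counted as past the threshold at 2-fold. The ratio script was tested on simulated counts. For shares at equal depth, cells were thinned to 8500 UMIs and shallower cells were left out. All 10 genes were described, and further list genes were named with at least 200 UMIs in a gate and a 2-fold difference. Nfkbia was given as the check of the genotype, and likeness used the 3 best genes per class. The other list genes given with values (Olfm4, Cybb, Klf6, Fcnb, Hp, Pglyrp1, Cebpe and Gfi1) were chosen after their values had been seen. The genes and lists were chosen with earlier results of these data known. Promoter windows were 250 bases before RefSeq starts. An antisense gene lies within Mpo, and Prtn3 overlaps the end of a neighbour on the other strand.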

Additional observations from a re-analysis of the deposited data

Results flagged for a closer look

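In the barcodes that the filter on genes and mitochondrial UMIs removed, which no comparison used, S100a8 and S100a9 together were at 76.1 CPM in KO (73 UMIs in 511 barcodes, 59.6 to 95.6, exact Poisson interval) and at 21.3 CPM in WT (17 UMIs in 382 barcodes, 12.4 to 34.2). This was flagged because the KO level lay above that of the WT library in data outside the main measurement. The highest KO barcode held 20 of the 73 UMIs. Primary granule genes were at 244.8 CPM in WT against 271.9 CPM in KO in these barcodes, and Ngp and Camp had 0 UMIs in both.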

How the results depend on the processing

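No paired analysis was possible because there was only 1 library of each genotype. For Ngp in the maturing gate (-4.50), the log2 KO/WT ratio was -2.52 with halved gate thresholds, -3.35 in thinned cells, -2.57 with the cells with S100a8 alone added and 3.13, the other direction, in female cells, and it lay between -4.50 and -3.58 under the other alternatives that gave a value. Without the top cell of each library it had no value, as had Ltf. The primary sum of the early gate (0.19) was -0.0785 with halved and -0.0883 with doubled thresholds, 0.0103 in thinned cells, 0.0413 without doublets, 0.12 in female cells, 0.16 on a total that left out ribosomal protein, mitochondrial and haemoglobin genes, 0.16 by median of ratios, 0.0297 as a mean over cells and 0.11 without the top cells. The secondary sum of the maturing gate (0.02) was -0.42 with halved and 0.27 with doubled thresholds, 0.57 in thinned cells, 0.38 without doublets, 3.77 in female cells, 0.68 as a mean over cells, 2.10 without the top cells, -0.47 with the cells with S100a8 alone and 0.25 without cells with markers of another lineage. Lcn2 in the maturing gate (1.55) turned to -0.0163 with halved thresholds and -0.0594 with the cells with S100a8 alone. The difference between the libraries in the share of cells in each gate stayed within its counting interval under all alternatives run. The cause of these changes was not tested, apart from the cells that each alternative removes or adds. The top-cell, S100a8-alone, other-lineage and all-barcode alternatives were chosen after seeing the data. Over all genes, 300 of 8009 were past 2-fold in the early gate, 1295 of 11113 with at least 1 UMI in each library and 9 of 2189 with at least 200 UMIs, and in the maturing gate 313 of 7546, 1402 of 10902 and 7 of 1771. In the maturing gate, the number of cells that carry them limits what can be said of Ngp and Ltf, whose UMIs lay in 1 or 2 cells of each library.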
